A study of Drosophila melanogaster with 12 samples.

Results

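The genes described here encode subunits of mitochondrial complex I, or close relatives of such subunits, and were chosen by name: every probe set whose single annotated gene symbol begins with ND-, with the brightest probe set standing for each gene. They number 31 genes of 10844 with a probe set on the array. Members were taken by symbol, with no measured difference in the rule. Total RNA of whole Drosophila melanogaster was hybridised to 12 one-colour Affymetrix DrosGenome1 arrays, 3 in each of 4 groups. Each RNA sample came from 5 males and 5 females, per the labels. The groups were wild-type flies (WT) and flies mutant for dU2AF50, carrying the change named S284Y, each grown at 25C, called permissive in the labels, or at 30C, called restrictive. dU2AF50 is the large subunit of U2AF, a splicing factor that recognises the 3′ end of introns. The labels do not give the age of the flies, how the S284Y allele is carried, or what the wild-type stock shares with the mutant. For the WT arrays titled 30C, the description field gives 25C on all 3, and array 1 is also called permissive there. Groups follow the titles.

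Complex I is the entry point of electrons from NADH into the respiratory chain. Its NADH module, the N module, oxidises NADH and passes electrons along iron-sulfur clusters to the Q module, where ubiquinone is reduced, and the membrane arm pumps protons across the inner mitochondrial membrane. A small set of core subunits carries out these reactions, and the other subunits, called accessory, are needed for assembly and stability. The core subunits of the membrane arm are encoded by mitochondrial DNA, and the rest of the complex by nuclear genes. In adult flies the flight muscles hold a large part of the mitochondria.

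The nuclear side of the complex was measured in part. The reference annotation lists 40 ND- genes, and 9 of them had no probe set with their symbol alone and are not analysed here. Of 7 nuclear core subunits, 3 were measured. No probe set carried a mitochondrially encoded ND gene. By the position of the human counterpart, 8 members were assigned to the N module and 2 to the Q module. Another 7 were assigned to the part of the membrane arm near the Q module and 9 to its far part. Each member was counted in 1 place only, and ND-ACP, the acyl carrier protein, was counted in the far part. The remaining 5 are named as relatives of ND-20, ND-24, ND-51 and ND-B14.5A, and whether they are built into the complex is not shown by the array. Human counterparts are those listed as synonyms in the reference. ND-MNLL alone had more than 1 probe set, and its 2 probe sets gave log2 fold changes of -0.34 and -0.51 for 30C against 25C in S284Y, neither past the threshold.

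Fold changes were fitted with limma on log2(signal + 16), with Benjamini-Hochberg adjustment over 13966 probe sets and a threshold of 0.05, and the error of a log2 fold change is its standard error (SE). Signals are linear and already scaled to a common mean. Signals of different probe sets were not set against each other, since probe sets differ in how strongly they bind their target. Nothing in the labels says that the arrays of a group came from separate cultures. P-values therefore measure the spread between these samples only. An exact permutation test of 3 arrays against 3 cannot give a p below 0.10. In whole flies, fewer cells of a type and less RNA per cell cannot be told apart.

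**Figure D1:**
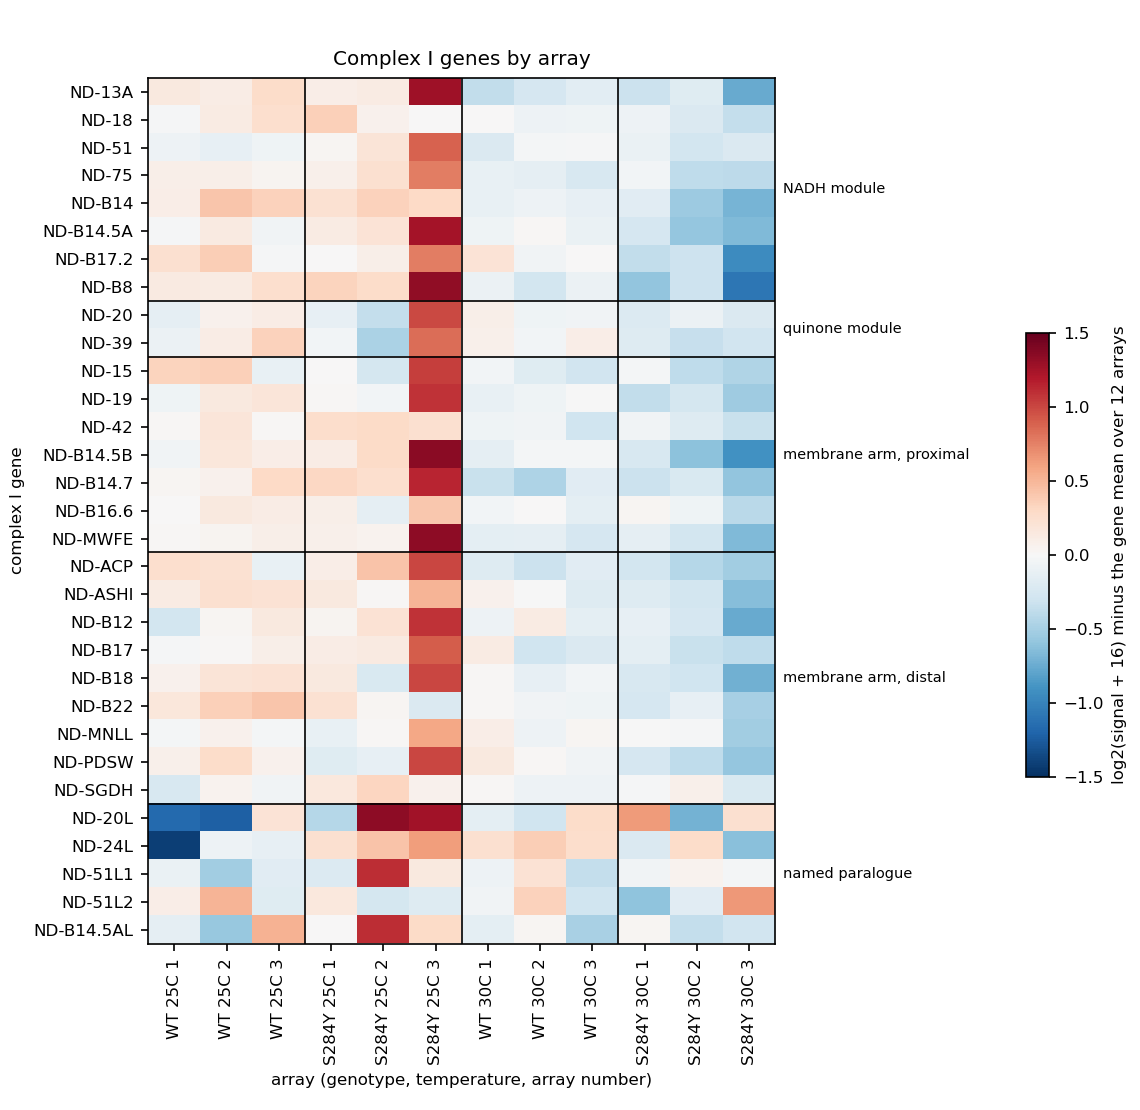
Each row is 1 of the 31 ND- genes, grouped by its place in the complex, and each column is 1 of the 12 arrays. The colour is the log2 signal minus that gene's mean over all arrays. Array 3 of S284Y at 25C is the column with most of the high values, and array 3 of S284Y at 30C the one with most of the low values.

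In 2 arrays complex I stood apart from the rest of its group. Array 3 of S284Y at 25C held the highest of the 12 signals for 22 of 31 members, against 20.3% of all probe sets. This array also held the lowest signal for 23.5% of all probe sets. Its median signal over all probe sets, 401.25, was the lowest of the 12 arrays. Array 3 of S284Y at 30C held the lowest signal for 22 of 31 members as well, against 11.1% of all probe sets. The median member, on the log2 scale and centred on each gene's mean, lay at 0.10, 0.14 and 0.89 in arrays 1, 2 and 3 of S284Y at 25C. It lay at 0.01, 0.12 and 0.10 in the WT arrays at 25C. At 30C it was -0.06, -0.06 and -0.10 in WT and -0.19, -0.27 and -0.52 in S284Y. The 3 arrays of S284Y at 30C were thus the lowest of the 12, while at 25C arrays 1 and 2 of S284Y lay within or close to the WT range. With quantile normalization array 3 of S284Y at 25C was still the highest, at 0.61.

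The high values of array 3 at 25C did not extend to every subunit. Its signal was over 1.5 times the mean of arrays 1 and 2 in 19 of 31 members, against 21.5% of all probe sets, and the median ratio was 1.65, against 0.86 over all probe sets. These 19 comprised 6 of 8 N-module members, both Q-module members, 5 of 7 near members and 6 of 9 far members of the membrane arm. They included 0 of 5 named relatives. For ND-20L, ND-24L, ND-51L1 and ND-B14.5AL, array 2 was itself 1.85 to 3.93 times the WT mean at 25C, which lowers this ratio. Against array 1 alone, array 3 was higher for each of these relatives, as in ND-20L with 950.2 against 285.7. ND-24L had its highest signal of all arrays in array 3. ND-51L2 was lower in array 3 than in array 1, with 414.2 against 532.4. Among the subunits that stayed near or below the other arrays were ND-B14 with a ratio of 1.01, ND-42 with 0.98, ND-SGDH with 0.89, ND-18 with 0.86 and ND-B22 with 0.78. At 30C, array 3 of S284Y lay below the mean of arrays 1 and 2 in 29 of 31 members, against 48.7% of all probe sets.

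The comparison of 30C with 25C in S284Y flies asks how the mutant responds to the restrictive temperature, and it was the comparison in which members passed the test. 6 of 31 members fell and 0 rose, against 2.18% of all probe sets that fell and 1.82% that rose. The fitted log2 fold change was below 0 in 30 of 31 members, against 54.0% of all probe sets, with a median of -0.64 against -0.05 over all genes. In 19 of 31 members the 3 arrays at 30C lay below all 3 at 25C, which held for 13.4% of all probe sets. By place, 3 of 8 N-module members fell, 0 of 2 in the Q module, 2 of 7 in the near and 1 of 9 in the far part of the membrane arm, and 0 of 5 named relatives. The log2 fold changes ranged from -1.31 to -0.36 in the N module, from -0.38 to -0.34 in the Q module, from -1.17 to -0.27 in the near part and from -0.92 to -0.24 in the far part. Among far members short of the threshold were ND-B12 (log2 -0.83 ± 0.26 SE, adjusted p = 0.0823), ND-B18 (log2 -0.73 ± 0.255 SE, adjusted p = 0.109) and ND-PDSW (log2 -0.64 ± 0.259 SE, adjusted p = 0.149), the counterparts of NDUFB3, NDUFB7 and NDUFB10.

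**Figure D2:**
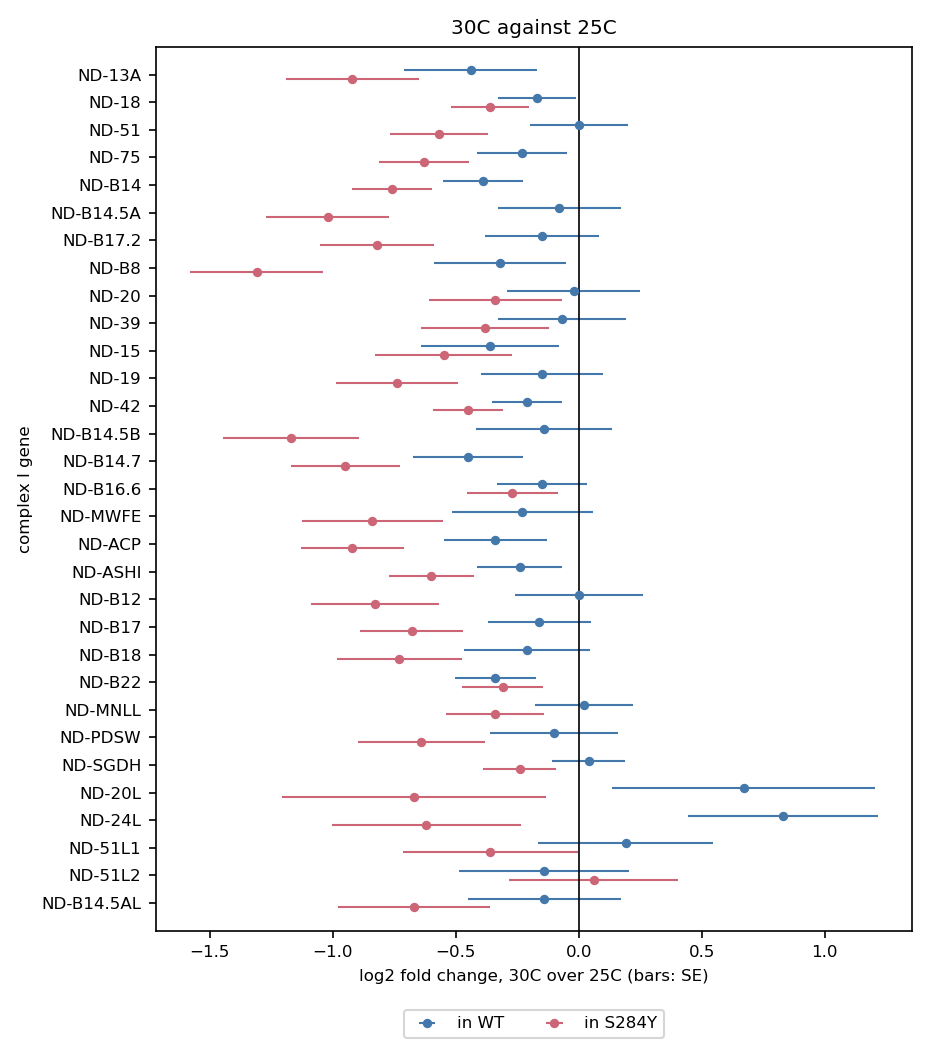
Log2 fold changes with SE between the temperatures (30C against 25C), for S284Y and for WT flies, 1 line per ND- gene, ordered by place in the complex. 6 genes passed the threshold in S284Y and 0 in WT, and 30 and 25 of the 31 values lie below 0.

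Of the 6 genes that fell, 3 belong to the N module. ND-B8 is the fly counterpart of human NDUFA2, a small accessory subunit. Its signals in arrays 1, 2 and 3 of S284Y were 2176, 2086 and 4338 at 25C and 1132, 1386 and 801 at 30C. In WT they were 1889, 1868 and 2045 at 25C and 1615, 1417 and 1624 at 30C. Every S284Y array at 30C lay below every other array, and the fold change was 2.48-fold lower in S284Y (log2 -1.31 ± 0.269 SE, adjusted p = 0.0274).

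ND-B14.5A, the counterpart of NDUFA7, is another accessory subunit. Its signals in S284Y were 5534, 5825 and 12012 at 25C and 4262, 3376 and 3188 at 30C. The WT values were 5021, 5581 and 4883 at 25C and 4826, 5131 and 4708 at 30C. The WT groups overlapped, and the S284Y arrays at 30C lay below all WT arrays. The signal was 2.03-fold lower at 30C in S284Y (log2 -1.02 ± 0.25 SE, adjusted p = 0.0433).

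ND-B14, the counterpart of NDUFA6, belongs to the LYR proteins, which bind acyl carrier protein. In S284Y its signals were 4662, 5058 and 4908 at 25C and 3531, 2719 and 2440.2 at 30C. In WT they were 4258, 5328 and 5058 at 25C and 3682, 3786 and 3644 at 30C. The groups at 30C were below those at 25C in both genotypes, and array 3 of S284Y at 25C did not stand out. The fold change in S284Y was 1.70-fold lower (log2 -0.76 ± 0.163 SE, adjusted p = 0.0298).

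The acyl carrier protein itself, ND-ACP, is the counterpart of NDUFAB1 and serves mitochondrial fatty acid synthesis as well as complex I. Its S284Y signals were 8687, 10864 and 16159 at 25C and 6668, 6009 and 5644 at 30C. Its WT signals were 9595, 9442 and 7489 at 25C and 7090.4, 6479.8 and 7197 at 30C. The groups at 30C lay below those at 25C in both genotypes. In S284Y the signal was 1.89-fold lower at 30C (log2 -0.92 ± 0.209 SE, adjusted p = 0.0373).

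In the near part of the membrane arm, ND-B14.5B and ND-B14.7 fell. ND-B14.5B, the counterpart of NDUFC2, had S284Y signals of 10317, 11579 and 24257 at 25C and 8037, 6193 and 5075 at 30C. Its WT signals were 9154, 10668 and 10209 at 25C and 8661, 9289 and 9333 at 30C. The S284Y groups did not overlap, the WT groups did, and the array 3 value at 25C was more than any other array held. The signal was 2.25-fold lower at 30C in S284Y (log2 -1.17 ± 0.276 SE, adjusted p = 0.0403).

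ND-B14.7 is the counterpart of NDUFA11, a membrane-embedded accessory subunit. It measured 4424, 4269 and 7894 in S284Y at 25C and 2863, 3052 and 2371 at 30C. In WT it measured 3639, 3734 and 4397 at 25C and 2832, 2586 and 3162 at 30C. All 6 arrays at 30C lay below all 6 at 25C. The fold change in S284Y was 1.93-fold lower (log2 -0.95 ± 0.222 SE, adjusted p = 0.0398).

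**Figure D3:**
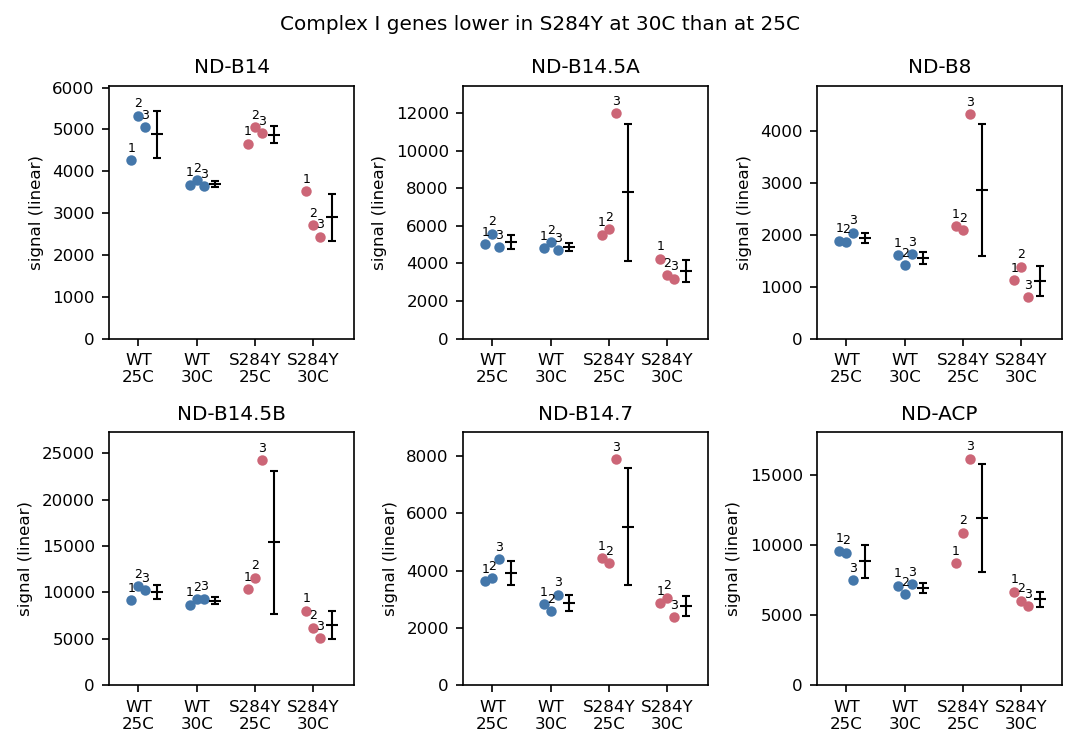
Signals of the 6 ND- genes that passed the threshold for 30C against 25C in S284Y, with 1 point per array and, beside them, the group mean with its SD over 3 arrays. At 30C every S284Y point lies below every S284Y point at 25C, and array 3 of S284Y at 25C is far above arrays 1 and 2 in all of them except ND-B14.

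The measured core subunits did not pass the test. ND-75, the counterpart of NDUFS1, carries iron-sulfur clusters of the N module. Its S284Y signals were 5475, 6140.0 and 8885 at 25C and 5058, 3977 and 3964 at 30C, and its WT signals were 5545, 5507 and 5328 at 25C and 4789.9, 4749.7 and 4383 at 30C. The arrays at 30C lay below those at 25C in both genotypes, with log2 fold changes of -0.63 ± 0.184 SE in S284Y (adjusted p = 0.0674) and -0.23 ± 0.184 SE in WT (adjusted p = 0.918).

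ND-51, the counterpart of NDUFV1, holds the NADH binding site and the flavin. Its signals were 7209, 8113 and 13107 in S284Y at 25C and 6626, 5835 and 6089 at 30C. In WT they were 6716, 6527 and 6787 at 25C and 6111, 6957 and 6990.2 at 30C. The S284Y groups did not overlap and the WT groups did, with log2 fold changes of -0.57 ± 0.199 SE (adjusted p = 0.109) and -0.00 ± 0.199 SE (adjusted p = 1).

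ND-20, the counterpart of NDUFS7, carries the last iron-sulfur cluster before ubiquinone. It measured 7412, 6294 and 16021 in S284Y at 25C and 6976, 7574 and 6912 at 30C. In WT it measured 7325, 8442 and 8719 at 25C and 8595, 7694 and 7754 at 30C. The groups overlapped in both genotypes, and the log2 fold changes were -0.34 ± 0.27 SE in S284Y (adjusted p = 0.44) and -0.02 ± 0.27 SE in WT (adjusted p = 0.998).

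Other N-module members were lower at 30C in S284Y without passing the threshold. ND-13A, the counterpart of the zinc-binding subunit NDUFS6, measured 6059.8, 6138 and 13687 in S284Y at 25C and 4518, 4984 and 3321 at 30C. Its WT signals were 6266, 6077 and 6816 at 25C and 4344, 4741 and 5061 at 30C. All arrays at 30C lay below all at 25C, with a log2 fold change of -0.92 ± 0.272 SE in S284Y (adjusted p = 0.0701) and -0.44 ± 0.272 SE in WT (adjusted p = 0.867). ND-B17.2, the counterpart of NDUFA12, had a log2 fold change of -0.82 ± 0.231 SE in S284Y (adjusted p = 0.0626). ND-18, the counterpart of NDUFS4, had the value closest to 0 in the N module, -0.36 ± 0.159 SE (adjusted p = 0.178).

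At the other end of the range were members that differed little between the temperatures in S284Y. ND-51L2, a relative of ND-51, had the highest value, a log2 fold change of 0.06 ± 0.345 SE (adjusted p = 0.934). Its signals were 532, 394 and 414 in S284Y at 25C and 308, 421 and 757 at 30C, so the groups overlapped. ND-SGDH, the counterpart of NDUFB5 in the far membrane arm, followed with -0.24 ± 0.148 SE (adjusted p = 0.327). Its signals were 4849, 5429 and 4565 at 25C and 4310.4, 4569.8 and 3709 at 30C. ND-B16.6, the counterpart of NDUFA13, also known as GRIM-19, had -0.27 ± 0.184 SE (adjusted p = 0.378), and its groups overlapped.

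How many members passed in S284Y depended on the model and on single arrays. With all 12 arrays, 0 of the 6 passed when the variance trend was left out (smallest adjusted p = 0.0628), and 2, ND-B8 and ND-B14, passed with median centring. Of 24 alternatives run, 16 kept the call of ND-B8, 13 that of ND-B14, 9 each those of ND-B14.5A and ND-B14.5B, and 8 each those of ND-ACP and ND-B14.7. Without both arrays numbered 3 of the S284Y groups, an alternative chosen after seeing the data, 4 of the 6 were kept. ND-ACP (adjusted p = 0.0616) and ND-B14.7 (adjusted p = 0.0599) were lost. The median was then -0.33, with 28 of 31 values below 0. When 1 array was left out at a time, 16 members passed without array 1 of S284Y at 25C and 7 without its array 2 or its array 3. Without array 1 of S284Y at 30C, 1 member passed, and without its array 2 or 3 none did. Leaving out a WT array, which alters only the shared spread, left 2, 2 and 1 for arrays 1, 2 and 3 at 25C and 1, 0 and 1 at 30C. Moving WT 30C array 1 to the WT 25C group left 1.

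In WT flies the same comparison, 30C against 25C, gave no call. 0 of 31 members passed in limma's test, against 0.0931% of all probe sets, and 1 of 31 had an unadjusted p under 0.05, against 6.49% of all probe sets. The log2 fold change was below 0 in 25 of 31 members, against 52.4% of all probe sets. The median was -0.15, against -0.00 over all genes. In 11 of 31 members the arrays at 30C lay wholly below those at 25C, against 12.2% of all probe sets. This share was larger than the background, but no single member's difference was beyond the spread after adjustment. The lowest values were those of ND-B14.7 (log2 -0.45 ± 0.222 SE, adjusted p = 0.778) and ND-13A (log2 -0.44 ± 0.272 SE, adjusted p = 0.867). The highest were those of the relatives ND-24L (log2 0.83 ± 0.385 SE, adjusted p = 0.764) and ND-20L (log2 0.67 ± 0.535 SE, adjusted p = 0.921).

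The comparison of genotypes at 25C asks what the mutation changes at the permissive temperature. 0 of 31 members passed in limma's test, against 0.788% of all probe sets, and 3 of 31 had an unadjusted p under 0.05, against 13.9%. The fitted value was above 0 in 28 of 31, against 50.3% of all probe sets, and the median was 0.26 against -0.01 over all genes. The S284Y arrays lay wholly above the WT arrays in 6 of 31 members, against 7.53%. These 6 were ND-24L, ND-42, ND-51, ND-B17, ND-B8 and ND-SGDH, named after their values were seen. Without array 3 of S284Y the median dropped to 0.09, with 17 values above 0 and 14 below.

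**Figure D4:**
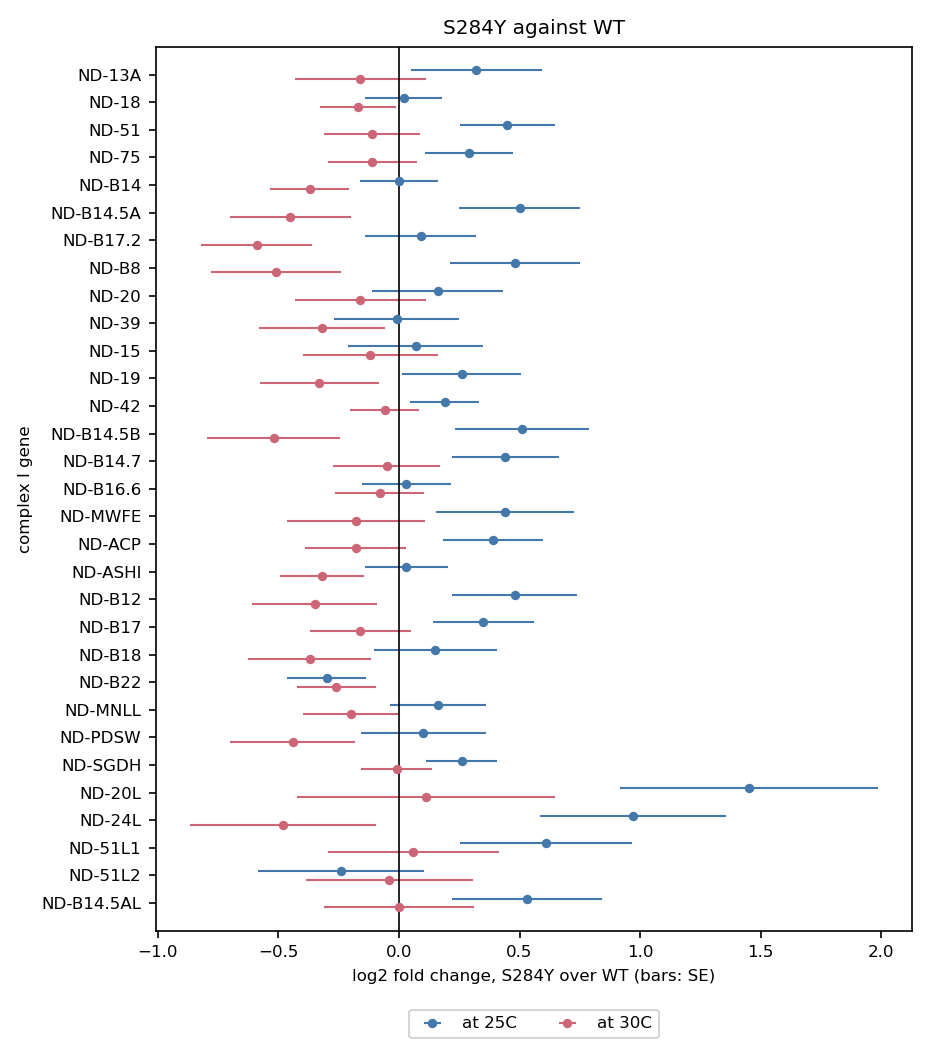
Log2 fold changes with SE between the genotypes (S284Y against WT), for each temperature, 1 line per ND- gene, ordered by place in the complex. No gene passed the threshold at either temperature. At 25C 28 of 31 values lie above 0 and at 30C 29 of 31 lie below 0.

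Of the 5 named relatives, 4 had the highest values at 25C. The other, ND-51L2, was among the 2 lowest members (log2 -0.24 ± 0.345 SE, adjusted p = 0.774). ND-20L, a relative of the Q-module core subunit ND-20, had WT signals of 164, 158 and 449 and S284Y signals of 286, 1009 and 950.2. Arrays 2 and 3 of S284Y were high and array 1 lay within the WT range, and the log2 fold change was 1.45 ± 0.535 SE (adjusted p = 0.268). It passed only without array 1 of S284Y, with a value of 2.03 (adjusted p = 0.0339). At 30C its signals were 348, 314 and 474 in WT and 614, 232 and 460.5 in S284Y, which overlapped.

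ND-24L, a relative of the core subunit ND-24, measured 122, 334 and 323 in WT and 419, 479.9 and 554 in S284Y at 25C. The groups did not overlap, and the log2 fold change was 0.97 ± 0.385 SE (adjusted p = 0.303). At 30C it measured 419, 462 and 428 in WT and 302, 432 and 223 in S284Y, and the groups overlapped. ND-51L1, a relative of ND-51, had signals of 318, 234 and 301 in WT and 295, 751 and 378 in S284Y at 25C. It measured 323, 399.8 and 262 in WT and 327, 354 and 334 in S284Y at 30C. Of its 12 arrays only array 2 of S284Y at 25C was high.

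ND-B14.5AL, a relative of ND-B14.5A, had its highest signal in the same array. Its signals were 1278, 940.5 and 2009 in WT and 1403, 3022 and 1717 in S284Y at 25C, and 1266, 1423 and 993 in WT and 1424, 1089 and 1143 in S284Y at 30C. Array 2 of S284Y at 25C was 3.93 times the WT mean for ND-20L, 2.64 times for ND-51L1, 2.14 times for ND-B14.5AL and 1.85 times for ND-24L. That array held the highest of the 12 signals for 5 of 31 members, against 23.7% of all probe sets, and its median signal over all probe sets, 546.45, was the highest of the 12 arrays. The WT signals of ND-51L2 were 510.1, 684 and 417 at 25C and 460.0, 612 and 384 at 30C, and its groups overlapped in every comparison. ND-20 and ND-51 themselves were highest in array 3 of S284Y at 25C.

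The lowest value at 25C was that of ND-B22, the counterpart of the LYR protein NDUFB9. It measured 9624, 10937 and 11372 in WT and 10027, 8697 and 7343 in S284Y, with a log2 fold change of -0.30 ± 0.165 SE (adjusted p = 0.429). At 30C it measured 8640.2, 8263 and 8174 in WT and 7145, 7820.0 and 6027 in S284Y, where the groups did not overlap (log2 -0.26 ± 0.165 SE, adjusted p = 0.663). Array 3 of S284Y at 25C, high for most members, was the lowest of its group here.

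At 30C, the restrictive temperature, no difference between the genotypes passed. 0 of 31 members passed in limma's test, against 1.53% of all probe sets, and 2 of 31 had an unadjusted p under 0.05, as did 1532 of 13966 probe sets. The log2 fold change was below 0 in 29 of 31 members, against 47.2% of all probe sets, and the median was -0.18 against 0.02 over all genes. Without array 3 of both S284Y groups, the alternative chosen after seeing the data, the median was -0.13, with 23 values below 0 and 8 above. S284Y arrays lay wholly below WT arrays in 13 of 31 members, against 13.3% of all probe sets, and wholly above in 0, against 14.8%. ND-B8 alone lay wholly above WT at 25C and wholly below it at 30C, an order shown by 0.401% of all probe sets. Without array 3 of S284Y at 25C, which alters only the shared spread here, 2 members passed, and the fit of the 6 arrays alone gave 1. Calls over all probe sets moved too, from 213 to between 82 and 821 of about 13966 with 1 array left out. They also rose in the fit of the 6 arrays, as given in the last section.

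ND-B17.2, an accessory subunit of the N module, had the lowest value at 30C. Its signals were 2604, 2175 and 2265 in WT and 1750.3, 1824 and 1167 in S284Y, with no overlap (log2 -0.59 ± 0.231 SE, adjusted p = 0.331). At 25C it measured 2672, 2916 and 2232 in WT and 2275, 2395 and 3848 in S284Y, with overlap (log2 0.09 ± 0.231 SE, adjusted p = 0.881). Next was ND-B14.5B, with a log2 fold change of -0.52 ± 0.276 SE (adjusted p = 0.556). The core subunits had -0.11 for ND-75, -0.11 for ND-51 and -0.16 for ND-20, all with adjusted p of at least 0.924.

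The interaction term tests whether the temperature effect differed between the genotypes. 0 of 31 members passed in limma's test, against 0% of all probe sets, and 5 of 31 had an unadjusted p under 0.05, against 8.07%. The interaction value was below 0 in 29 of 31 members, against 49.4% of all probe sets, with a median of -0.51 against 0.01. The lowest values were those of ND-24L (log2 -1.45 ± 0.545 SE, adjusted p = 0.605) and ND-20L (log2 -1.34 ± 0.757 SE, adjusted p = 0.648). The highest were those of ND-51L2 (log2 0.20 ± 0.488 SE, adjusted p = 0.918) and ND-B22 (log2 0.04 ± 0.233 SE, adjusted p = 0.971). Without array 3 of S284Y at 25C the median was -0.25. The calls made in S284Y flies and not in WT are thus not shown to differ between the genotypes.

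Other parts of the respiratory chain were read from the same fit, which uses the same arrays. Of 29 measured subunits of complexes II to V, 9 fell and 0 rose for 30C against 25C in S284Y. Over all probe sets 2.18% fell and 1.82% rose. In the other comparisons 0 of the 29 passed. Their medians were -0.71 for that comparison, -0.29 for 30C against 25C in WT, 0.24 for the genotypes at 25C, -0.25 at 30C and -0.46 for the interaction. The corresponding complex I medians were -0.64, -0.15, 0.26, -0.18 and -0.51. In WT the arrays at 30C lay wholly below those at 25C in 20 of the 29 subunits of complexes II to V, and in 11 of 31 complex I members. The share over all probe sets was 12.2%. The median of these 29, centred as above, lay at 0.19, 0.31 and 0.73 in arrays 1, 2 and 3 of S284Y at 25C. At 30C it lay at -0.29, -0.28 and -0.56 in S284Y. Of complexes II to V, only complex V did not share the high value of array 3 at 25C, with 0.24, 0.35 and 0.33 in the S284Y arrays. The 7 measured genes of the citric acid cycle, which is outside the respiratory chain, did not share it either. Their median lay at 0.16, 0.35 and -0.46 in the same arrays. Whether complex I differs from the other complexes was not tested.

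Complex I genes without the ND- prefix were read too, added after values were known. NP15.6, the counterpart of NDUFB11, fell at 30C in S284Y (log2 -0.97 ± 0.203 SE, adjusted p = 0.0282). NdufA3 (log2 -1.08 ± 0.305 SE, adjusted p = 0.0637) and NdufV3 (log2 -0.64 ± 0.181 SE, adjusted p = 0.0637) did not pass. Assembly factors help to build the complex without remaining in it. Of 6 measured, 0 passed in any comparison, and the smallest adjusted p was that of CG5569, the counterpart of NDUFAF3, with a log2 fold change of 1.49 ± 0.422 SE for 30C against 25C in S284Y (adjusted p = 0.0637).

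**Figure D5:**
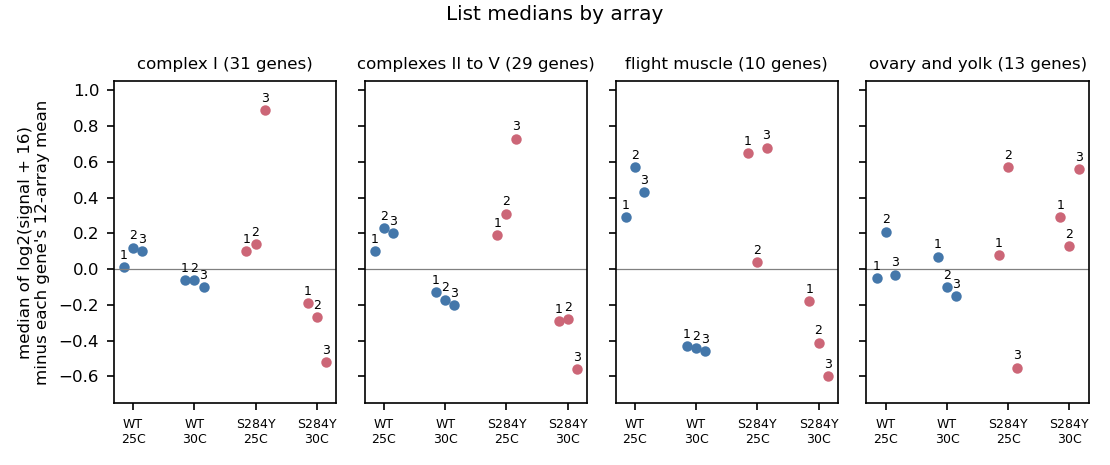
Median centred log2 signal of each gene list on each of the 12 arrays, for complex I, complexes II to V, flight muscle and ovary genes, with 1 point per array and its number. Complex I is highest in array 3 of S284Y at 25C, at 0.89, and lowest in array 3 of S284Y at 30C, at -0.52.

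Tissue markers also differed between the groups and arrays, and not all in the same order as complex I. Of 13 flight muscle genes 10 were measured, and 4 fell at 30C in S284Y, against 2.18% of all probe sets, and 1 in WT, where 9 of 13966 probe sets fell. All 10 values were below 0 in both genotypes, and the medians were -0.79 in S284Y and -0.78 in WT, beside -0.64 and -0.15 for complex I. Act88F, the flight muscle actin, fell in both genotypes, with log2 fold changes of -2.19 ± 0.255 SE in S284Y (adjusted p = 0.00307) and -1.72 ± 0.255 SE in WT (adjusted p = 0.0284). The summed signal of the 10 genes ranged over 69314 to 79816 in WT and 67990 to 101696 in S284Y at 25C, and over 38818 to 41142 and 33497 to 42827 at 30C. Both groups at 30C thus lay below both at 25C. In S284Y at 30C the median muscle gene, centred as above, lay at -0.18, -0.41 and -0.60 in arrays 1, 2 and 3. The WT arrays at 30C had -0.46 to -0.43. Muscle thus lay above the WT arrays in arrays 1 and 2 and below them in array 3. Complex I lay below the WT arrays in each of these S284Y arrays. Array 3 of S284Y at 30C was the lowest of all arrays for both lists. The summed signal of the 31 complex I members ranged over 153364 to 166494 in WT and 160149 to 271324 in S284Y at 25C, and over 139617 to 145477 and 106501 to 135043 at 30C. The summed signals of muscle and of complex I were both highest in array 3 of S284Y at 25C.

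Germline markers went both ways. Of 14 ovary and egg genes 13 were measured, and at 30C against 25C in S284Y 6 had values above 0 and 7 below, from -1.03 to 1.36, with a median of -0.16. Those that passed were 4 that rose, against 1.82% of all probe sets: osk, which organises germ plasm (log2 1.19, adjusted p = 0.0315), bcd, the anterior patterning factor (log2 1.12, adjusted p = 0.0396), vas, a germline RNA helicase (log2 0.72, adjusted p = 0.0404), and aub, a piRNA-binding protein (log2 1.20, adjusted p = 0.0182). The median ovary gene lay at -0.55 in array 3 of S284Y at 25C and at 0.56 in array 3 of S284Y at 30C, where complex I lay at 0.89 and -0.52. The summed ovary signal ranged over 214072 to 303170 in WT and 255496 to 892736 in S284Y at 25C, the highest in array 2, and over 141000 to 199187 and 245623 to 300379 at 30C.

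Of the 14 testis genes 1 passed at 30C against 25C in S284Y, twe, a meiotic phosphatase, which rose (log2 1.36 ± 0.342 SE, adjusted p = 0.0461). Over all probe sets 1.82% rose. Of the 14 genes, 11 had values below 0, with a median of -0.25. The summed signal of the 14 testis genes, all measured, ranged over 32757 to 35657 in WT and 34869 to 56053 in S284Y at 25C, and over 34357 to 37636 and 27213 to 33469 at 30C. Its highest value, like that of complex I, was in array 3 of S284Y at 25C. Of 8 fat body genes, 2 were lower in S284Y than in WT at 25C and 5 at 30C past the threshold. Over all probe sets 0.473% were lower at 25C and 1.17% at 30C. Their summed signal ranged over 48882 to 56975 in WT and 29262 to 37487 in S284Y at 25C, and over 49223 to 49957 and 21659 to 23814 at 30C. No member of these tissue lists was at 0 on any array. The part of muscle, ovary, testis and fat body RNA in the complex I values was not tested.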

How the data were processed

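The deposited table holds intensity, a linear signal for each probe set and array. The authors' software and scaling are not given in the sources used here. After trimming 2% at each end, array means ran from 1000.12 to 1000.18, and no further normalization was applied. Equal means do not show that the distributions match. Array medians ran from 401.25 in array 3 to 546.45 in array 2 of S284Y at 25C. Of 14010 probe sets, 44 controls were left out. Among the others, 12443 carried 1 gene symbol, 327 several and 1196 none. The log2 values were computed from the deposited signals after adding 16, which makes fold changes of dim probe sets smaller. limma 3.58.1 in R 4.3.3 fitted 4 group means to all 12 arrays, with moderated variances (eBayes, trend on, 4.83 prior degrees of freedom). The number of arrays limits the precision.

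Array values are given for the core subunits, their named relatives, the 2 highest and 2 lowest members of each contrast, and members past the threshold. The rule for members uses gene symbols only, but the rule and the gene lists were chosen with earlier results of these data known. Alternatives covered the offset, scaling, dim probe sets, the trend, a replicate block, the fitted arrays, the probe set of a gene and arrays left out. Replicate numbers did not pair the samples: correlations of same-numbered deviations ran from -0.131 to 0.032.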

Additional observations from a re-analysis of the deposited data

Results flagged for a closer look

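ND-B8, the NDUFA2 counterpart, had all 3 S284Y arrays above all 3 WT arrays at 25C and below them at 30C, an opposite direction of the genotype effect at the 2 temperatures. Over all probe sets 0.401% showed that order. The difference of the effects was -0.99 on the log2 scale, and limma's interaction term did not pass the threshold (adjusted p = 0.605).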

How the results depend on the processing

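Among 2023 recomputed log2 fold changes of named members, 1930 kept their side of the threshold, 81 lost a call, 12 gained one and 0 changed direction with a call on either side. Most of the 2023 had no call to lose. All 81 losses fell on the 6 members called for 30C against 25C in S284Y, the only results that could lose one. Each of these 6 kept its call in only 8 to 16 of 24 alternatives. For 30C against 25C in S284Y, 2 members passed with median centring, 0 without the eBayes trend, 0 with the replicate block (smallest adjusted p = 0.0546), 1 with WT 30C array 1 moved, 0 without arrays 2 and 3 of S284Y at 25C, 0 in a fit of the 6 arrays compared, and 0 to 16 with 1 array left out. Its median was -0.33 without both arrays 3 and -0.80 to -0.43 with 1 array left out. For the genotypes at 25C, the median was 0.02 without arrays 2 and 3 of S284Y and 0.09 to 0.43 with 1 array left out, with 0 to 1 members past the threshold. At 30C, 4 members passed without arrays 2 and 3 of S284Y at 25C, 1 in the fit of 6 arrays and 0 to 2 with 1 array left out. The interaction median was -0.22 without those arrays, -0.19 without both arrays 3 and -0.65 to -0.25 with 1 array left out. The cause of these changes was not tested. No member passed in WT or for the interaction under any alternative run.

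Counts over all probe sets moved more. At 25C the 110 calls became 291 without both arrays 3, 17 in the fit of 6 arrays and 48 to 885 with 1 array left out. At 30C the 213 became 106 with WT 30C array 1 moved, 1278 without arrays 2 and 3, 466 without both arrays 3, 1106 with 6 arrays and 82 to 821 with 1 left out. The 559 in S284Y became 128 without the trend, 164 with the replicate block, 222 with WT 30C array 1 moved, 183 without arrays 2 and 3, 342 without both arrays 3, 0 with 6 arrays and 17 to 2398 with 1 left out. The 13 in WT became 7 without the dimmest 40% of probe sets, 8 without the trend, 1 with the block, 0 with array 1 moved, 200 without arrays 2 and 3, 91 without both arrays 3, 178 with 6 arrays and 1 to 99 with 1 left out. The interaction gave 0 to 84 with 1 array left out.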
